A study of Arabidopsis thaliana with 8 samples.

Results

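The transcriptome of Arabidopsis seedlings lacking full ENAP1 and ENAP2 function was compared with that of wild-type seedlings after the same dehydration treatment. The double mutant enap1-1enap2 and its wild type Col-0 were grown for 10 days on MS medium, and whole seedlings were then placed for 4 h on filter paper wetted with medium containing 25% PEG8000, a polymer that lowers the water potential of the solution (Dehydration), or with medium alone (Mock). The enap1-1 allele is a deletion made with CRISPR/Cas9, and enap2 carries T-DNA in the first exon of ENAP2, so that each locus was represented by 1 mutant allele. The 4 groups were therefore enap1-1enap2 Dehydration, Col-0 Dehydration, enap1-1enap2 Mock and Col-0 Mock, with 2 libraries each. The comparison described here is that of the 2 enap1-1enap2 Dehydration libraries with the 2 Col-0 Dehydration libraries. It was made for every gene with enough counts, which were 21614 of the 36799 genes in the table. It asks which genes reached a different level in the mutant under water deficit.

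ENAP1 and ENAP2 are related nuclear proteins with a SANT domain of the trihelix type, and ENAP1 is known as a chromatin-associated partner of EIN2 in the ethylene response. Plants that lose water raise the hormone abscisic acid (ABA), which binds PYR/PYL receptors, releases SnRK2 kinases from inhibition by clade A PP2C phosphatases and lets bZIP factors act on ABRE elements in promoters. A second branch acts through DREB factors on DRE elements. Downstream of both lie protective proteins such as dehydrins and other late embryogenesis abundant (LEA) proteins, while water channels, growth-related wall proteins and photosynthesis genes are commonly turned down.

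The 4 dehydration libraries held 41431259 and 29512436 counts for enap1-1enap2 and 24007691 and 24919659 counts for Col-0, and the 8 libraries ranged between 24007691 and 48279415. At these depths 3 counts, taken here as the floor of detection, correspond to 0.0775 and 0.106 CPM (counts scaled to library size) in the enap1-1enap2 Dehydration libraries and to 0.135 and 0.127 CPM in the Col-0 Dehydration libraries. Floors cover counting error only. All levels below are CPM scaled by TMM factors. Levels on log2(CPM + 1) correlated across genes at 0.995 between the enap1-1enap2 Dehydration libraries, at 0.9947 between the Col-0 Dehydration libraries, and at 0.9865 to 0.9882 between the genotypes (21614 genes, which are not independent replicates). Single libraries stood apart in a few genes. The non-coding AT3G06365 was at 18177 and 2843 CPM in enap1-1enap2 Dehydration, against 4610 and 4691 CPM in Col-0 Dehydration, and took 1.7% of all counts of enap1-1enap2 Dehydration replicate 1. AT2G07732 on chromosome 2, annotated as a RuBisCO large chain protein, was at 102 and 9.22 CPM in enap1-1enap2 Dehydration, against 10.6 and 7.43 CPM in Col-0 Dehydration, and counted as higher through that same library. Below, enap1-1enap2 Dehydration replicate 2 stands apart in iron genes and Col-0 Mock replicate 1 in some seed and LEA genes. In whole seedlings, fewer cells of a type and less RNA per cell cannot be told apart.

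The targeted genes were examined first. ENAP1 (AT3G11100, chr3:3476187-3477900, minus strand, coordinates of TAIR10) was at 12.3 and 11.5 CPM in enap1-1enap2 Dehydration, against 22.5 and 24.4 CPM in Col-0 Dehydration. The mutant libraries lay below the wild type and still held 474 and 328 counts. The table gives 1 count for the whole gene and does not separate the deleted stretch. The log2 fold change was −0.98 ± 0.14 (SE, adjusted p = 0.000367). ENAP2 (AT5G05550, chr5:1639000-1640960, minus strand), which overlaps the neighbouring AT5G05560, was at 4.06 and 4.93 CPM in enap1-1enap2 Dehydration, against 8.70 and 7.22 CPM in Col-0 Dehydration. Its log2 fold change was −0.83 ± 0.20 (adjusted p = 0.0111), and it missed the adjusted threshold without Col-0 Dehydration replicate 1 (−0.69, adjusted p = 0.0996) or without enap1-1enap2 Dehydration replicate 1 (−0.69, adjusted p = 0.0985). Under Mock, both genes were lower in enap1-1enap2. ENAP1 was at 3.81 and 5.11 CPM in enap1-1enap2 Mock, against 13.9 and 17.3 CPM in Col-0 Mock (−1.83), and ENAP2 was at 3.10 and 3.51 CPM in enap1-1enap2 Mock, against 9.32 and 7.76 CPM in Col-0 Mock (−1.37).

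Under dehydration 520 of 21614 genes (2.41%) differed between the genotypes by more than 1 on the log2 scale, in either direction, with p under 0.01 before and under 0.05 after Benjamini-Hochberg adjustment, and genes past these 3 thresholds are named as called. Of these, 218 (1.01%) were higher and 302 (1.4%) were lower in enap1-1enap2 Dehydration. By the adjusted p alone, 3176 genes (14.7%) passed, of which 1417 (6.56%) were higher and 1759 (8.14%) lower. The median log2 fold change was 1.33 over the genes called higher and −1.39 over those called lower, and 34 of the 218 and 62 of the 302 exceeded an absolute log2 fold change of 2. The genotypes' libraries did not overlap in 214 of the 218 and in 302 of the 302. Genes past the thresholds are picked for such a gap, so these counts add no further evidence. Over all 21614 genes tested, both enap1-1enap2 Dehydration libraries lay above both Col-0 Dehydration libraries in 6300 and below them in 6130. The 4 dehydration libraries averaged at least 5 CPM in 102 of the genes called higher and in 131 of those called lower. In 19 called genes both libraries of 1 genotype had no count, 14 of them in enap1-1enap2 and 5 in Col-0. Over all genes tested the median log2 fold change was 0.005. The p-values measure only the spread between these libraries.

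**Figure D1:**
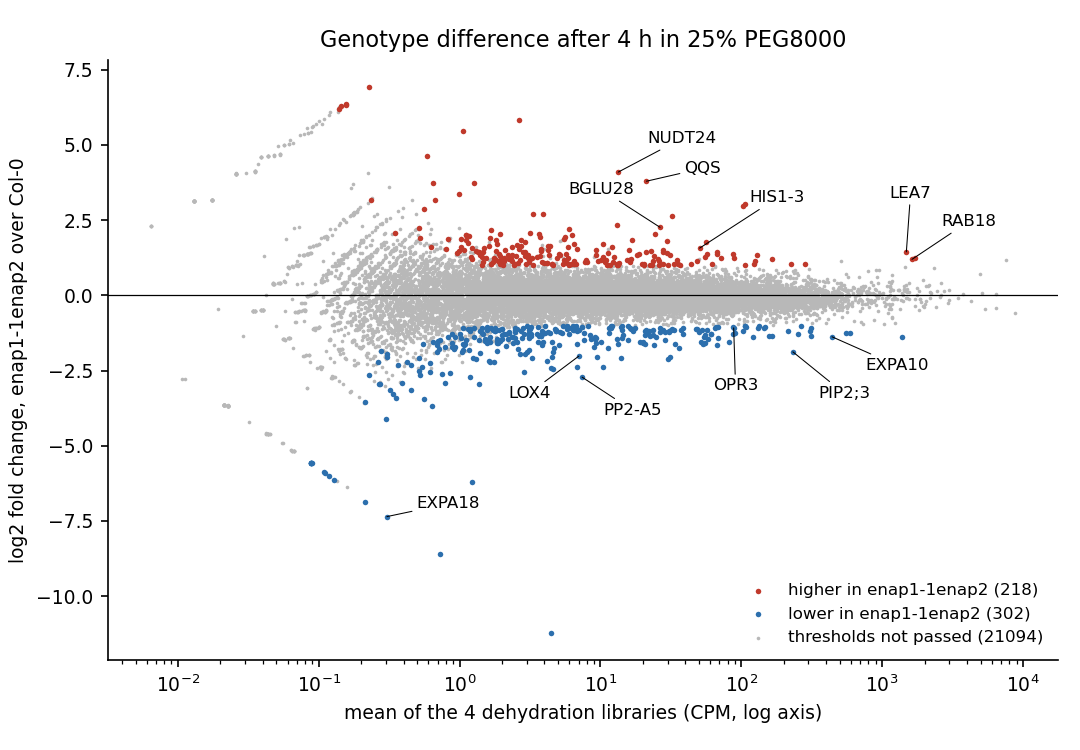
Each point is 1 of the 21614 genes tested, with the mean level over the 4 dehydration libraries (CPM, log axis) across and the log2 fold change of enap1-1enap2 Dehydration over Col-0 Dehydration upward. The 218 genes called higher are red, the 302 called lower are blue and the others are grey, and the named points show RAB18, LEA7 and HIS1-3 above 0 at high or middle levels and PIP2;3, OPR3 and EXPA10 below 0.

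Among the genes called higher were protective proteins at high levels. RAB18, an ABA-responsive dehydrin, was at 2104 and 2433 CPM in enap1-1enap2 Dehydration, against 943 and 1036 CPM in Col-0 Dehydration. Both mutant libraries exceeded both wild-type libraries, with a log2 fold change of 1.2 ± 0.12 (adjusted p = 1.66e-05). LEA7, a LEA protein induced by drying and ABA, was at 2194 and 2157 CPM in enap1-1enap2 Dehydration, against 759 and 837 CPM in Col-0 Dehydration (1.45 ± 0.30, adjusted p = 0.00438). Its call was lost without Col-0 Dehydration replicate 1 (adjusted p = 0.057) and with DESeq2 (0.0646). AT5G66780, annotated as a LEA protein and outside the fixed list, was at 182 and 191 CPM in enap1-1enap2 Dehydration, against 73.5 and 73 CPM in Col-0 Dehydration (1.35 ± 0.10, adjusted p = 1.65e-06). Of the 20 dehydrin and LEA genes listed, 2 were called higher and none lower, 6 were higher by the adjusted p alone, and the median log2 fold change was 0.45. Among all 21614 genes tested, 1.01% were called higher and 6.56% were higher by the adjusted p alone. COR15A, a chloroplast protein that protects membranes in the cold, was at 6556 and 5717 CPM in enap1-1enap2 Dehydration, against 3858 and 3582 CPM in Col-0 Dehydration (0.72, adjusted p = 0.00565). KIN1, a small hydrophilic cold- and ABA-induced protein, was at 2336 and 2201 CPM in enap1-1enap2 Dehydration, against 1594 and 1610 CPM in Col-0 Dehydration (0.50, adjusted p = 0.00139). The other members past the adjusted p were XERO2 (0.35) and LEA4-5 (0.68). The group did not move as a whole, since the dehydrins ERD10, COR47 and ERD14 had log2 fold changes of 0.04, 0.03 and 0.11 and KIN2 of −0.09, and none passed. Summed over the list, enap1-1enap2 Dehydration held 45520 and 44570 CPM, against 38020 and 38100 CPM in Col-0 Dehydration. With the 4 dehydration libraries fitted alone, or without either Col-0 Mock library, 11 members passed the adjusted p as higher. The 2 Col-0 Mock libraries were far apart in LEA7 (30.5 and 9.28 CPM) but not in RAB18 (24 and 27.3 CPM). Only 3 members passed without Col-0 Dehydration replicate 1 or 2, and 4 passed without any 1 of the enap1-1enap2 libraries.

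Promoter sequence is shown for 3 of these strongly higher genes, because each carries an ABRE, the element bound by the bZIP factors of the ABA pathway. The 250 bases before the annotated start of each gene were read from the RefSeq genome TAIR10.1 and are written 5′ to 3′ on the gene's strand. RAB18 lies on the minus strand with its upstream stretch at chr5:26519448-26519697, LEA7 on the plus strand at chr1:19619474-19619723, and AT5G15500, an ankyrin repeat gene described further on, on the minus strand at chr5:5033541-5033790. Capitals mark motif matches on either strand, which are the ABRE as ACGTGTC or its form ACGTGGC, the G-box CACGTG (which can share letters with the ABRE), the DRE as GCCGAC, the heat shock element core GAANNTTC and the evening element AAATATCT.
RAB18: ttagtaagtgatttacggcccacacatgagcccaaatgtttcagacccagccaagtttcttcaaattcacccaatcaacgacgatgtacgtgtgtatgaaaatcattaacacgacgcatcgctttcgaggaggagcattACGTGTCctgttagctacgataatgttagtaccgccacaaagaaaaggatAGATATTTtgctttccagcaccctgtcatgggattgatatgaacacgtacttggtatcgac
LEA7: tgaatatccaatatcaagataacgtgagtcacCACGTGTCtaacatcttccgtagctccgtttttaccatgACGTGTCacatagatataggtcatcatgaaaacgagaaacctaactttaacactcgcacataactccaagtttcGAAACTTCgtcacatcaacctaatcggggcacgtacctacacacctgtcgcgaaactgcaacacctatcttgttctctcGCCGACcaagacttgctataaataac
AT5G15500: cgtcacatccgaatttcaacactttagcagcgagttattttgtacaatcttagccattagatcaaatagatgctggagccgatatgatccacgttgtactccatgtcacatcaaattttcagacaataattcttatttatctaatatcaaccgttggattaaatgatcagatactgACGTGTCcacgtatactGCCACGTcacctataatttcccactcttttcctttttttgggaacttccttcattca
In RAB18 the ABRE begins 111 bases before the start and an evening element, on the other strand, 61 bases before it. In LEA7 ABRE matches begin 217 and 179 bases before the start, the farther of them joined to a G-box, with a heat shock element core 105 bases and a DRE 26 bases before the start. In AT5G15500 both ABRE forms stand close together, 74 and 57 bases before the start. A match describes letters in this window and is not a measured binding site.

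Upstream in the ABA pathway, 1 receptor was called and no kinase or phosphatase. Of 9 PYR/PYL receptors tested, 4 were lower by the adjusted p and none higher, with a median log2 fold change of −0.38. Over all 21614 genes tested, 8.14% were lower and 6.56% higher by the adjusted p. PYL6 was called lower, at 1.45 and 0.985 CPM in enap1-1enap2 Dehydration, against 2.57 and 3.48 CPM in Col-0 Dehydration (−1.29 ± 0.27, adjusted p = 0.0051), and lost the call without Col-0 Dehydration replicate 2 (adjusted p = 0.0568). The more abundant PYL8 was at 28.9 and 31.1 CPM in enap1-1enap2 Dehydration, against 50.3 and 40.1 CPM in Col-0 Dehydration (−0.59, adjusted p = 0.00141), and PYL4 (−0.65) and PYL7 (−0.43) also passed. Of 10 SnRK2 kinases, 5 were higher by the adjusted p and none lower, with a median of 0.29 and none past the fold threshold. SNRK2.6, the kinase of ABA-induced stomatal closure, was at 94.6 and 96.4 CPM in enap1-1enap2 Dehydration, against 67.1 and 68.6 CPM in Col-0 Dehydration (0.49 ± 0.08, adjusted p = 0.000654). SNRK2.7 (0.49), SNRK2.1 (0.44), SNRK2.3 (0.35) and SNRK2.10 (0.29) were the others. None of the 9 clade A PP2C phosphatases passed, with a median of 0.14. The most abundant, ABI1, was at 1024 and 1025 CPM in enap1-1enap2 Dehydration, against 1086 and 1141 CPM in Col-0 Dehydration (−0.12 ± 0.09, adjusted p = 0.394). NCED3, the enzyme of the committed step of ABA synthesis under water deficit, was at 470 and 413 CPM in enap1-1enap2 Dehydration, against 322 and 313 CPM in Col-0 Dehydration (0.47 ± 0.09, adjusted p = 0.00169), the only one of 8 synthesis genes to pass. CYP707A1, which breaks ABA down, was at 63.3 and 55.1 CPM in enap1-1enap2 Dehydration, against 43.9 and 40.6 CPM in Col-0 Dehydration (0.49, adjusted p = 0.017), also the only one of 6 in its list. Among 10 bZIP factors and AFP proteins, GBF3 (0.34) and ABF2 (0.29) were higher by the adjusted p and none was called.

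Among 27 drought-related transcription factors, none was called higher and 3 were called lower, while 3 and 7 passed the adjusted p in the 2 directions. DREB1A, an AP2 factor of the cold and drought response that binds the DRE, was at 6.67 and 6.97 CPM in enap1-1enap2 Dehydration, against 16.6 and 16 CPM in Col-0 Dehydration (−1.26 ± 0.20, adjusted p = 0.000779). The groups did not overlap, and DREB1A was lower under Mock too, at 1.62 and 2.06 CPM in enap1-1enap2 Mock, against 2.92 and 4.74 CPM in Col-0 Mock (−1.08). Its neighbour DREB1B was at 2.95 and 1.27 CPM in enap1-1enap2 Dehydration, against 5.50 and 5.43 CPM in Col-0 Dehydration (−1.35 ± 0.40, adjusted p = 0.0327), and lost the call without Col-0 Dehydration replicate 1 (adjusted p = 0.129), Col-0 Dehydration replicate 2 (0.118) or enap1-1enap2 Dehydration replicate 2 (0.235), and had −2.11 without enap1-1enap2 Dehydration replicate 1. MYB15, a MYB factor known to act on DREB1 genes, was at 0.982 and 0.739 CPM in enap1-1enap2 Dehydration, against 1.89 and 2.89 CPM in Col-0 Dehydration (−1.46 ± 0.34, adjusted p = 0.00894). It lost the call without Col-0 Dehydration replicate 2 (adjusted p = 0.0963) or enap1-1enap2 Dehydration replicate 2 (0.0684). NAC019, a NAC factor of the jasmonate and ABA responses, was at 173 and 135 CPM in enap1-1enap2 Dehydration, against 248 and 266 CPM in Col-0 Dehydration (−0.74), and the related ATAF1 had −0.38. On the other side, NF-YA5, a subunit of a CCAAT-binding factor linked to drought, was at 28.4 and 26.7 CPM in enap1-1enap2 Dehydration, against 16.3 and 14.5 CPM in Col-0 Dehydration (0.84), and the homeobox genes HB12 (0.36) and HB7 (0.31) passed as well. DREB2A (−0.24, adjusted p = 0.0789) and RD26 (0.15) did not pass.

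Heat shock genes had calls on the higher side only. Of 16 heat shock factors and chaperones, 5 were called higher and none lower, 8 were higher by the adjusted p, and the median log2 fold change was 0.37. The shares over all 21614 genes tested were 1.01% called higher and 6.56% higher by the adjusted p. HSP22, a small heat shock protein of the endomembrane system, was at 33.9 and 33 CPM in enap1-1enap2 Dehydration, against 13 and 11 CPM in Col-0 Dehydration (1.48 ± 0.13, adjusted p = 4.45e-06). The cytosolic small heat shock protein HSP18.2 was at 15.2 and 14.1 CPM in enap1-1enap2 Dehydration, against 7.17 and 6.28 CPM in Col-0 Dehydration (1.13 ± 0.21, adjusted p = 0.00188). In both genes the mutant replicates lay close together and above the wild type. HSFA6A, a heat shock factor induced by drought and salt, was at 14.9 and 15.3 CPM in enap1-1enap2 Dehydration, against 6.95 and 6.45 CPM in Col-0 Dehydration (1.17 ± 0.28, adjusted p = 0.0106). Its call was lost without any 1 of the 4 dehydration libraries (adjusted p between 0.0629 and 0.0803) and with DESeq2 (adjusted p = 0.331). The peroxisomal HSP15.7 was at 3.85 and 4.93 CPM in enap1-1enap2 Dehydration, against 2.07 and 1.70 CPM in Col-0 Dehydration (1.21 ± 0.30, adjusted p = 0.0123), and its call was lost without Col-0 Dehydration replicate 2 (adjusted p = 0.0873) or enap1-1enap2 Dehydration replicate 2 (0.11). The chloroplast HSP21 was at 2.84 and 2.67 CPM in enap1-1enap2 Dehydration, against 0.361 and 0.849 CPM in Col-0 Dehydration (2.17). The abundant chaperone HSP70 was at 859 and 770 CPM in enap1-1enap2 Dehydration, against 692 and 629 CPM in Col-0 Dehydration (0.30), and passed the adjusted p together with HSP90.1 (0.43) and HSP17.6A (0.61), whereas HSP101 (0.07) did not. In place of 8, only 3 members passed the adjusted p without Col-0 Dehydration replicate 2 or without either enap1-1enap2 Dehydration library, and 4 without Col-0 Dehydration replicate 1.

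Calls among genes of chlorophyll breakdown and senescence were likewise only on the higher side, and 1 gene of reactive oxygen chemistry was called higher. Of 11 genes of chlorophyll breakdown and senescence, 3 were called higher and 5 passed the adjusted p as higher. Over all 21614 genes tested, 1.01% were called higher and 6.56% passed the adjusted p as higher. SWEET15, a sucrose exporter of senescing leaves, was at 128 and 123 CPM in enap1-1enap2 Dehydration, against 47 and 58 CPM in Col-0 Dehydration (1.26 ± 0.12, adjusted p = 1.15e-05). NYE2, which takes part in removing magnesium from chlorophyll, was at 8.92 and 8.87 CPM in enap1-1enap2 Dehydration, against 3.79 and 4.24 CPM in Col-0 Dehydration (1.15 ± 0.24, adjusted p = 0.00535), and lost the call without Col-0 Dehydration replicate 1 (0.0527). SAG13, a marker of ageing leaves, was at 16.9 and 13 CPM in enap1-1enap2 Dehydration, against 8.57 and 6.20 CPM in Col-0 Dehydration (1.02 ± 0.21, adjusted p = 0.00376), and lost the call without Col-0 Dehydration replicate 2 (0.0558) or enap1-1enap2 Dehydration replicate 1 (0.057). PAO, which opens the chlorophyll ring, had 0.45 and NYE1 had 0.39. Of 10 reactive oxygen enzymes, APX2, a cytosolic ascorbate peroxidase, was the only one called, at 7.44 and 9.08 CPM in enap1-1enap2 Dehydration, against 2.98 and 3.95 CPM in Col-0 Dehydration (1.25 ± 0.27, adjusted p = 0.00643). That call was lost without Col-0 Dehydration replicate 1 (0.0735) or enap1-1enap2 Dehydration replicate 2 (0.0732). The NADPH oxidase genes RBOHF (0.41) and RBOHD (0.37) passed the adjusted p as higher.

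Most sulfur starvation genes listed were higher in the mutant under both treatments. Of 12 genes listed, 3 were called higher under dehydration and 8 passed the adjusted p, with a median of 0.49, and 9 passed the adjusted p as higher under Mock. Of all 21614 genes tested, 751 passed it as higher under Mock. BGLU28, a beta-glucosidase induced by sulfur starvation, was at 48.9 and 38.7 CPM in enap1-1enap2 Dehydration, against 9.74 and 8.57 CPM in Col-0 Dehydration (2.26 ± 0.28, adjusted p = 7.36e-05), and at 5.79 and 4.81 CPM in enap1-1enap2 Mock, against 1.98 and 0.405 CPM in Col-0 Mock (2.25). SDI1, a protein that holds down the synthesis of aliphatic glucosinolates when sulfur is short, was at 99.99 and 95.7 CPM in enap1-1enap2 Dehydration, against 42.2 and 32.8 CPM in Col-0 Dehydration (1.38 ± 0.14, adjusted p = 1.16e-05). LSU1, a small protein of the low-sulfur response, was at 42.1 and 47.1 CPM in enap1-1enap2 Dehydration, against 21.6 and 22 CPM in Col-0 Dehydration (1.03 ± 0.10, adjusted p = 1.24e-05), and had 0.95 without enap1-1enap2 Dehydration replicate 2. In the same libraries CYP79F1, which starts the synthesis of methionine-derived glucosinolates, was at 9.05 and 10.9 CPM in enap1-1enap2 Dehydration, against 33.1 and 26.7 CPM in Col-0 Dehydration (−1.59 ± 0.12, adjusted p = 2.09e-06). CYP79F1 was alike under Mock (−0.01), at 243 and 234 CPM in enap1-1enap2 Mock, against 224.2 and 255.6 CPM in Col-0 Mock, and its interaction passed (adjusted p = 2.3e-05).

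Iron genes gave calls that rested on 1 library. BHLH100, a bHLH factor of the iron deficiency response, was at 2.43 and 41.8 CPM in enap1-1enap2 Dehydration, against 4.78 and 3.82 CPM in Col-0 Dehydration, so that the groups overlapped although it was called (2.35 ± 0.75, adjusted p = 0.0475). Without enap1-1enap2 Dehydration replicate 2 its log2 fold change was −0.82, and the call was also lost without Col-0 Dehydration replicate 1 (adjusted p = 0.174) or 2 (0.215), without enap1-1enap2 Mock replicate 1 (0.0762) or 2 (0.0735), with a replicate block (0.129), with library size alone (0.0589), in the fit on the 4 dehydration libraries (0.0643) and with DESeq2 (0.214). BHLH101 was at 1.89 and 9.99 CPM in enap1-1enap2 Dehydration, against 1.17 and 1.70 CPM in Col-0 Dehydration (2.03 ± 0.56, adjusted p = 0.0249), and had 0.39 without that library (adjusted p = 0.73). Its call was also lost without Col-0 Dehydration replicate 1 (0.166) or 2 (0.0845). The same library was high in BHLH38 (1.73 and 15 CPM in enap1-1enap2 Dehydration, against 2.39 and 2.21 CPM in Col-0 Dehydration) and in the peptide gene IMA1 (4.39 and 26.5 CPM in enap1-1enap2 Dehydration, against 7.85 and 8.83 CPM in Col-0 Dehydration). Over the 11 iron genes the median was 0.87, and −0.41 without enap1-1enap2 Dehydration replicate 2. FRO2, the ferric reductase of the root surface, was at 14.9 and 11.2 CPM in enap1-1enap2 Dehydration, against 6.13 and 8.02 CPM in Col-0 Dehydration (0.88, adjusted p = 0.00551), whereas the iron transporter IRT1, at 5.17 and 9.29 CPM in enap1-1enap2 Dehydration, against 9.47 and 11.1 CPM in Col-0 Dehydration, did not pass.

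**Figure D2:**
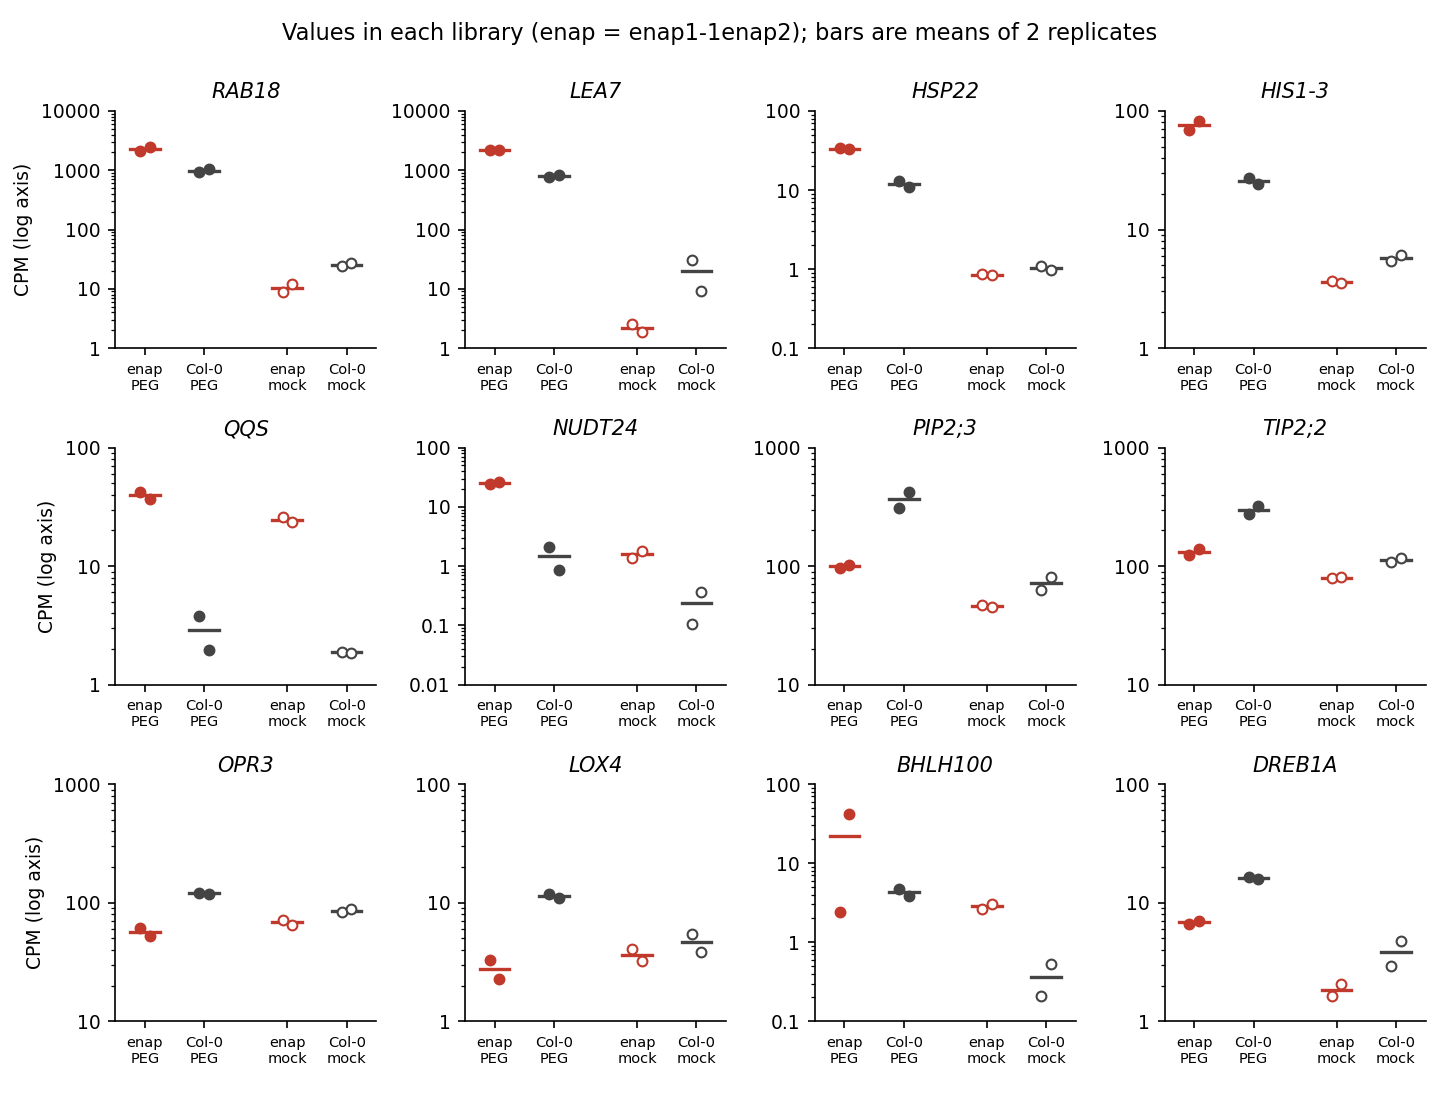
Level in each library (CPM, log axis) of 12 genes, with the groups in the order enap1-1enap2 Dehydration, Col-0 Dehydration, enap1-1enap2 Mock and Col-0 Mock; points are libraries and bars are the means of 2. RAB18, LEA7, HSP22 and HIS1-3 are higher in enap1-1enap2 Dehydration than in Col-0 Dehydration, PIP2;3, TIP2;2, OPR3, LOX4 and DREB1A are lower, QQS and NUDT24 are higher under both treatments, and the 2 enap1-1enap2 Dehydration points of BHLH100 lie far apart.

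On the lower side the water channels formed a broad group. Of 18 PIP and TIP aquaporins, 4 were called lower and none higher, 10 were lower by the adjusted p, and the median was −0.49. In 16 of the 18 both enap1-1enap2 Dehydration libraries lay below both Col-0 Dehydration libraries. The same held for 6130 of all 21614 genes tested. PIP2;3, a plasma membrane aquaporin, was at 96.8 and 102 CPM in enap1-1enap2 Dehydration, against 307 and 424 CPM in Col-0 Dehydration (−1.88 ± 0.14, adjusted p = 1.14e-06). Its near copy PIP2;2 was at 157 and 197 CPM in enap1-1enap2 Dehydration, against 389 and 516 CPM in Col-0 Dehydration (−1.35 ± 0.12, adjusted p = 7.37e-06). Of the exon sequence of PIP2;3 and PIP2;2, 21.5% and 19.5% of 31-base windows recur elsewhere in the genome, so that the split of reads between them is uncertain. PIP1;1 was at 204 and 167 CPM in enap1-1enap2 Dehydration, against 443 and 411 CPM in Col-0 Dehydration (−1.2 ± 0.10, adjusted p = 4.15e-06). The tonoplast aquaporin TIP2;2 was at 125 and 139 CPM in enap1-1enap2 Dehydration, against 276 and 319 CPM in Col-0 Dehydration (−1.17 ± 0.09, adjusted p = 1.85e-06). The most abundant members stood just inside the fold threshold: PIP2;1 was at 737 and 664 CPM in enap1-1enap2 Dehydration, against 1341 and 1378 CPM in Col-0 Dehydration (−0.96), and TIP1;1 was at 866 and 840 CPM in enap1-1enap2 Dehydration, against 1568 and 1652 CPM in Col-0 Dehydration (−0.92). PIP2;7, at 433 and 373 CPM in enap1-1enap2 Dehydration, against 377 and 324 CPM in Col-0 Dehydration, did not pass (0.20, adjusted p = 0.192). Summed over the list the aquaporins held 5983 and 5629 CPM in enap1-1enap2 Dehydration, against 9193 and 9214 CPM in Col-0 Dehydration.

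Many jasmonate genes were lower, among them synthesis enzymes and JAZ repressors, which jasmonate itself induces. Of 22 genes tested, 6 were called lower and none higher, while 15 were lower and 1 higher by the adjusted p, with a median of −0.65. LOX4, a lipoxygenase at the start of jasmonate synthesis, was at 3.26 and 2.25 CPM in enap1-1enap2 Dehydration, against 11.7 and 10.9 CPM in Col-0 Dehydration (−2.02 ± 0.24, adjusted p = 6.07e-05). AOC3, an allene oxide cyclase of a later step, was at 15 and 10.06 CPM in enap1-1enap2 Dehydration, against 30.5 and 34.2 CPM in Col-0 Dehydration (−1.36 ± 0.15, adjusted p = 4.11e-05). OPR3, the peroxisomal reductase that follows, was at 61.3 and 52 CPM in enap1-1enap2 Dehydration, against 121 and 120 CPM in Col-0 Dehydration (−1.08 ± 0.09, adjusted p = 3.83e-06). These 3 synthesis genes were named because they were called, and they do not cover every step. JAR1, which conjugates jasmonate to isoleucine, was at 81 and 71.8 CPM in enap1-1enap2 Dehydration, against 135 and 128 CPM in Col-0 Dehydration (−0.78). Among the repressors, JAZ9 was at 79.4 and 60.3 CPM in enap1-1enap2 Dehydration, against 139 and 147 CPM in Col-0 Dehydration (−1.03 ± 0.11, adjusted p = 1.78e-05), and JAZ10 was at 6.41 and 3.80 CPM in enap1-1enap2 Dehydration, against 16.2 and 13.8 CPM in Col-0 Dehydration (−1.54). TAT3, a tyrosine aminotransferase induced by jasmonate, was at 8.17 and 2.32 CPM in enap1-1enap2 Dehydration, against 21.8 and 23.9 CPM in Col-0 Dehydration (−2.09 ± 0.36, adjusted p = 0.00122), with −3.3 without enap1-1enap2 Dehydration replicate 1 and −1.48 without replicate 2. AOC4, a second allene oxide cyclase gene, was the 1 member higher by the adjusted p (0.45, adjusted p = 0.00515). The abundant leaf genes went otherwise: LOX2 was at 3358 and 2438 CPM in enap1-1enap2 Dehydration, against 3159 and 2087 CPM in Col-0 Dehydration (0.14), and VSP2 was at 1294 and 932 CPM in enap1-1enap2 Dehydration, against 978 and 494 CPM in Col-0 Dehydration (0.60, adjusted p = 0.076). Neither passed. In several of these genes enap1-1enap2 Dehydration replicate 2 was the lower of its pair. Without it OPR3 (−0.97) and JAZ9 (−0.85) fell short of the fold threshold, as JAZ9 did without Col-0 Dehydration replicate 2 (−0.99), and 3 members were called lower and 11 passed the adjusted p. MYC2, the master factor of the pathway, had no count in any library, and 3241 of its 3289 bases overlap AT1G32630 in the annotation, so that it could not be measured.

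Salicylate and other defence genes gave few calls. Among 15 salicylate genes, WRKY70, a defence factor, was called higher, at 8.43 and 6.19 CPM in enap1-1enap2 Dehydration, against 3.43 and 3.74 CPM in Col-0 Dehydration (1.03 ± 0.23, adjusted p = 0.0076). Its call was lost without Col-0 Dehydration replicate 1 (0.0656) or enap1-1enap2 Dehydration replicate 1 (0.0884). PR5, a pathogenesis-related protein, was called lower, at 8.06 and 10.2 CPM in enap1-1enap2 Dehydration, against 17 and 20.3 CPM in Col-0 Dehydration (−1.04 ± 0.19, adjusted p = 0.00195), and fell short of the fold threshold without Col-0 Dehydration replicate 2 (−0.91) or enap1-1enap2 Dehydration replicate 1 (−0.87). Of 8 genes of camalexin and related compounds, CYP71A12, a cytochrome P450 acting on indole-3-acetaldoxime, was called higher (3.10 and 5.56 CPM in enap1-1enap2 Dehydration, against 1.80 and 1.53 CPM in Col-0 Dehydration), and had a log2 fold change of 1.34, or 0.9 without enap1-1enap2 Dehydration replicate 2, which is under the threshold. FOX1, an oxidase of indole carbonyl nitrile synthesis, was called lower (1.5 and 2.25 CPM in enap1-1enap2 Dehydration, against 2.8 and 5.86 CPM in Col-0 Dehydration) and lost the call without Col-0 Dehydration replicate 2 (0.155) or enap1-1enap2 Dehydration replicate 1 (0.0858).

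Wall-loosening and light-harvesting genes included 1 strongly lower member each. EXPA10, an alpha-expansin of growing leaves, was at 272 and 218 CPM in enap1-1enap2 Dehydration, against 652 and 621 CPM in Col-0 Dehydration (−1.38 ± 0.13, adjusted p = 7.65e-06), and 5 of 15 expansin and XTH genes were lower and 2 higher by the adjusted p. LHCB1.1, a chlorophyll-binding protein of photosystem II, was at 293 and 371 CPM in enap1-1enap2 Dehydration, against 771 and 796 CPM in Col-0 Dehydration (−1.24 ± 0.11, adjusted p = 3.83e-06), with 31.2% of its exon windows recurring elsewhere. The 14 green tissue markers as a list had a median of 0.02, with 1 higher and 4 lower by the adjusted p, and summed to 23760 and 25500 CPM in enap1-1enap2 Dehydration, against 30110 and 29540 CPM in Col-0 Dehydration. Of the 16 root markers only EXPA18, an expansin of root hairs, passed. It had no counts in either enap1-1enap2 Dehydration library, against 0.541 and 0.679 CPM in Col-0 Dehydration, and was at least 6.67-fold lower when 3 counts per library are taken as the floor. The root markers summed to 1401 and 1094 CPM in enap1-1enap2 Dehydration, against 1369 and 1244 CPM in Col-0 Dehydration, with a median of −0.62. Of 10 guard cell genes none was called, while 3 were higher and 2 lower by the adjusted p, and they summed to 217 and 222 CPM in enap1-1enap2 Dehydration, against 209 and 215 CPM in Col-0 Dehydration. GORK, the outward potassium channel of guard cells, was at 22.1 and 23.3 CPM in enap1-1enap2 Dehydration, against 12 and 13.3 CPM in Col-0 Dehydration (0.84), and SLAH3, an anion channel, was at 33.2 and 33.2 CPM in enap1-1enap2 Dehydration, against 57.3 and 56.1 CPM in Col-0 Dehydration (−0.77). The part of cell composition in the gene results was not tested.

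**Figure D3:**
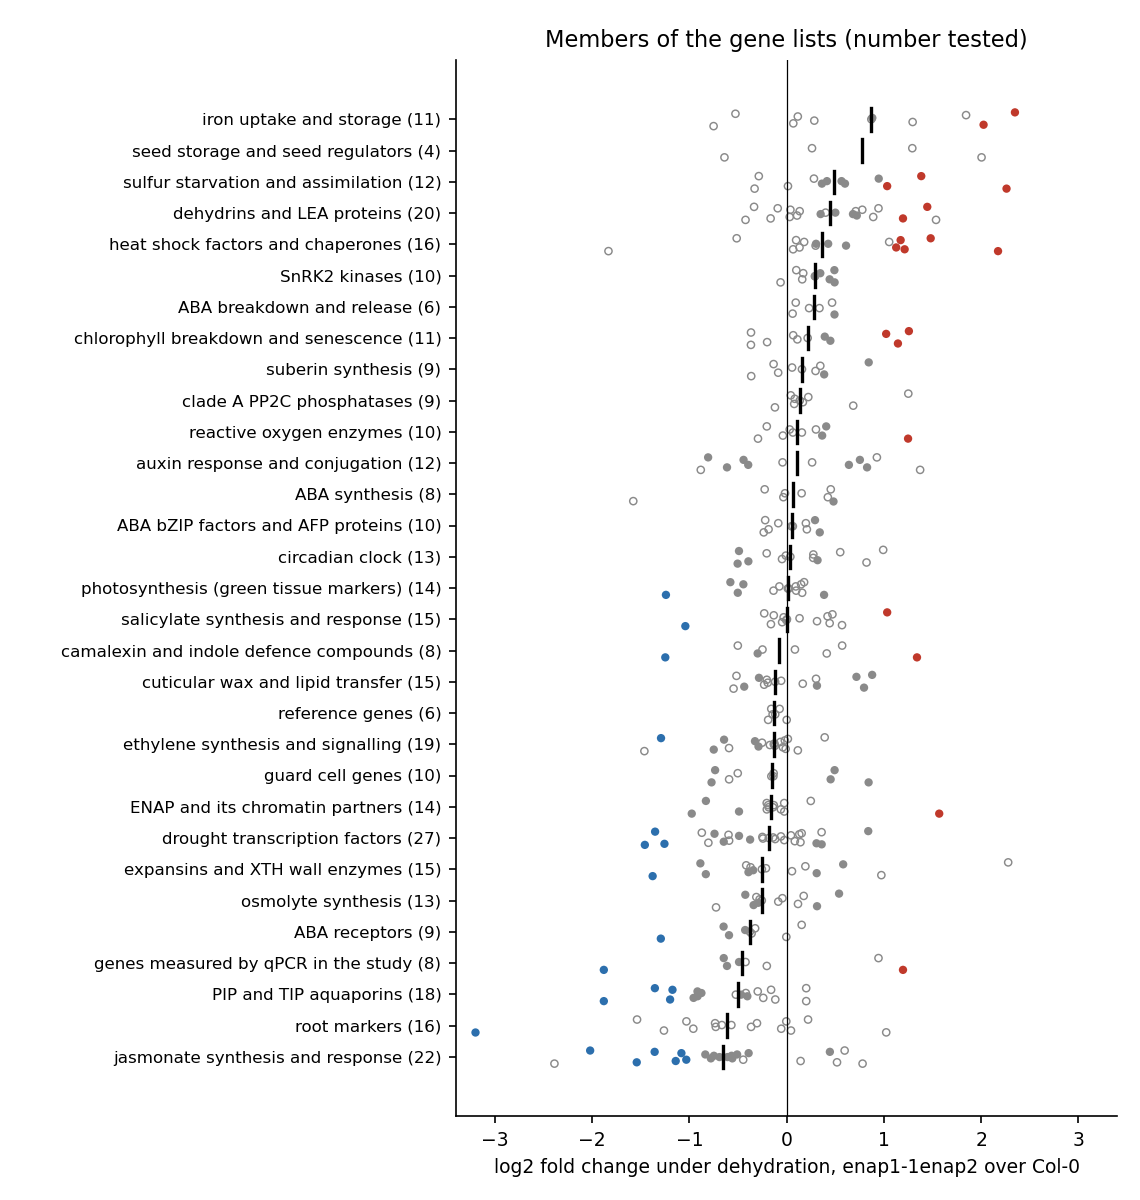
Log2 fold change of enap1-1enap2 Dehydration over Col-0 Dehydration for every tested member of each gene list, with the lists in order of their medians (black bars). Red and blue points are past the 3 thresholds, filled grey points pass the adjusted p alone and open points do not pass; the aquaporin and jasmonate medians lie at −0.49 and −0.65 and those of heat shock, LEA and sulfur genes at 0.37, 0.45 and 0.49, and EXPA18 is drawn at the left limit.

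The genes with the smallest p-values on the higher side included several outside the drought lists. HIS1-3, a drought-inducible linker histone, was at 68.8 and 82.7 CPM in enap1-1enap2 Dehydration, against 27 and 24 CPM in Col-0 Dehydration (1.57 ± 0.11, adjusted p = 1.11e-06). EGY3, a chloroplast protein related to site-2 proteases, was at 77.2 and 78.6 CPM in enap1-1enap2 Dehydration, against 33 and 32 CPM in Col-0 Dehydration (1.26 ± 0.09, adjusted p = 1.11e-06), although reads where it overlaps AT1G17860 were left out of its count. AT5G15500, whose promoter is shown above, was at 127 and 126 CPM in enap1-1enap2 Dehydration, against 48.7 and 49.7 CPM in Col-0 Dehydration (1.36 ± 0.12, adjusted p = 3.83e-06). In all 3 the replicates of a genotype lay within a small part of the distance between the genotypes. AT4G08570, of the heavy metal transport and detoxification family, was at 39.1 and 42 CPM in enap1-1enap2 Dehydration, against 14 and 16 CPM in Col-0 Dehydration (1.43), and AT1G52000, a mannose-binding lectin, was at 89.6 and 113 CPM in enap1-1enap2 Dehydration, against 43.8 and 41.3 CPM in Col-0 Dehydration (1.25). AT3G28270 (1.05) and AT1G14730, of the cytochrome b561 family (1.04), lay just past the fold threshold, and AT3G28270 fell short of it without Col-0 Dehydration replicate 2 (0.98). QQS, an orphan gene known for its effect on leaf starch, was at 42.5 and 36.7 CPM in enap1-1enap2 Dehydration, against 3.79 and 1.95 CPM in Col-0 Dehydration (3.80 ± 0.19, adjusted p = 7.41e-08). NUDT24, a nudix hydrolase, was at 24.5 and 26.1 CPM in enap1-1enap2 Dehydration, against 2.12 and 0.849 CPM in Col-0 Dehydration (4.10 ± 0.31, adjusted p = 1.65e-06), with 4.89 without Col-0 Dehydration replicate 1. Among genes of at least 5 CPM on average with no overlap between the genotypes, these 2 had the largest rises, followed by BGLU28, the Rossmann-fold protein AT2G29300 (10.5 and 9.32 CPM in enap1-1enap2 Dehydration, against 2.25 and 2.04 CPM in Col-0 Dehydration) and the peroxidase AT2G18150 (43.5 and 35.5 CPM in enap1-1enap2 Dehydration, against 12.7 and 6.45 CPM in Col-0 Dehydration).

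On the lower side the genes with the smallest p-values had varied annotations. AT3G54400, an aspartyl protease, was at 27.4 and 24.9 CPM in enap1-1enap2 Dehydration, against 88.2 and 73.3 CPM in Col-0 Dehydration (−1.62 ± 0.10, adjusted p = 3.97e-07). AT2G32240, annotated as an early endosome antigen, was at 87.1 and 90.06 CPM in enap1-1enap2 Dehydration, against 211 and 240 CPM in Col-0 Dehydration (−1.35 ± 0.08, adjusted p = 3.97e-07), and AT1G76600 was at 15.71 and 14.5 CPM in enap1-1enap2 Dehydration, against 41.7 and 42.3 CPM in Col-0 Dehydration (−1.47 ± 0.10, adjusted p = 1.01e-06). SUC1, a sucrose-proton symporter, was at 23.8 and 20.5 CPM in enap1-1enap2 Dehydration, against 55.9 and 53.4 CPM in Col-0 Dehydration (−1.3 ± 0.09, adjusted p = 1.16e-06). ProT3, a proline transporter that overlaps a neighbouring gene, was at 36.6 and 34.5 CPM in enap1-1enap2 Dehydration, against 78.9 and 95.6 CPM in Col-0 Dehydration (−1.29 ± 0.10, adjusted p = 2.27e-06). Among the largest falls in genes of at least 5 CPM were those of PP2-A5, a phloem lectin (1.81 and 2.11 CPM in enap1-1enap2 Dehydration, against 13.2 and 12.6 CPM in Col-0 Dehydration, −2.72 ± 0.19), of AT1G15010 (2.48 and 1.90 CPM in enap1-1enap2 Dehydration, against 11.4 and 11.5 CPM in Col-0 Dehydration, −2.37 ± 0.26), and of DIN11, a dark-induced oxygenase (18.6 and 3.69 CPM in enap1-1enap2 Dehydration, against 47.5 and 51.4 CPM in Col-0 Dehydration, −2.10 ± 0.39). The mutant replicates of DIN11 were far apart, and both lay below Col-0 Dehydration, with −3.74 without enap1-1enap2 Dehydration replicate 1 and −1.41 without replicate 2. AT2G01008, beside the ribosomal RNA genes of chromosome 2, was at 4.14 and 2.5 CPM in enap1-1enap2 Dehydration, against 16.5 and 18.5 CPM in Col-0 Dehydration (−2.38), with 80.5% of its exon windows recurring elsewhere, and its level therefore cannot be assigned to this locus with certainty.

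Upstream sequence is shown for the 2 strongly lower genes AT1G76600 and AT3G54400, because both carry repeated W-boxes, the element bound by WRKY factors. The 250 bases before the start lie at chr1:28746583-28746832 on the plus strand for AT1G76600 and at chr3:20142764-20143013 on the minus strand for AT3G54400, in TAIR10.1. Capitals mark TTGACT on either strand, which reads AGTCAA when it lies on the other strand.
AT1G76600: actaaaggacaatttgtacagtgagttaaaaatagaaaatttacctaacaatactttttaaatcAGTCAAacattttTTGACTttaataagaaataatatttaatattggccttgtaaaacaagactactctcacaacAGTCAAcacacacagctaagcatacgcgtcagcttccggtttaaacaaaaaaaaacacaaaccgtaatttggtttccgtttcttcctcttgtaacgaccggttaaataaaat
AT3G54400: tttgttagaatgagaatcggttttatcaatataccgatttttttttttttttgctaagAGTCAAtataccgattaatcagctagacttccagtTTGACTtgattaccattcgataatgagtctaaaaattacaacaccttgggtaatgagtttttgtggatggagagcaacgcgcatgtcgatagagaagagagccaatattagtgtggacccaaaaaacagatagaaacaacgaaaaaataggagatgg
The matches begin 186, 173 and 112 bases before the start of AT1G76600 and 192 and 157 bases before that of AT3G54400.

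Across all genes with a promoter window, the motifs were counted from 250 bases before to 50 bases after the start on both strands, in 218 windows of genes called higher, 302 windows of genes called lower and 21613 windows of genes tested. An ABRE (ACGTGTC or ACGTGGC) was in 17.0% of the windows of genes called higher, in 4.97% of those of genes called lower and in 8.78% of all windows. A W-box (TTGACC or TTGACT) was in 30.3% of the windows of genes called higher, 42.1% of those of genes called lower and 32.6% of all. The evening element AAATATCT was in 5.5%, 10.3% and 5.83% of the same 3 sets of windows, and the G-box CACGTG in 11.5%, 6.62% and 8.8%. The ABRE and G-box shares were thus highest among genes called higher, and the W-box and evening element shares among genes called lower. The DRE (ACCGAC or GCCGAC) was in 8.26%, 8.94% and 9.66% of the 3 sets, the heat shock element core in 12.8%, 11.6% and 11.4%, and the GCC-box GCCGCC in 0.459%, 2.32% and 2.73%. These shares are descriptions without a test.

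**Figure D4:**
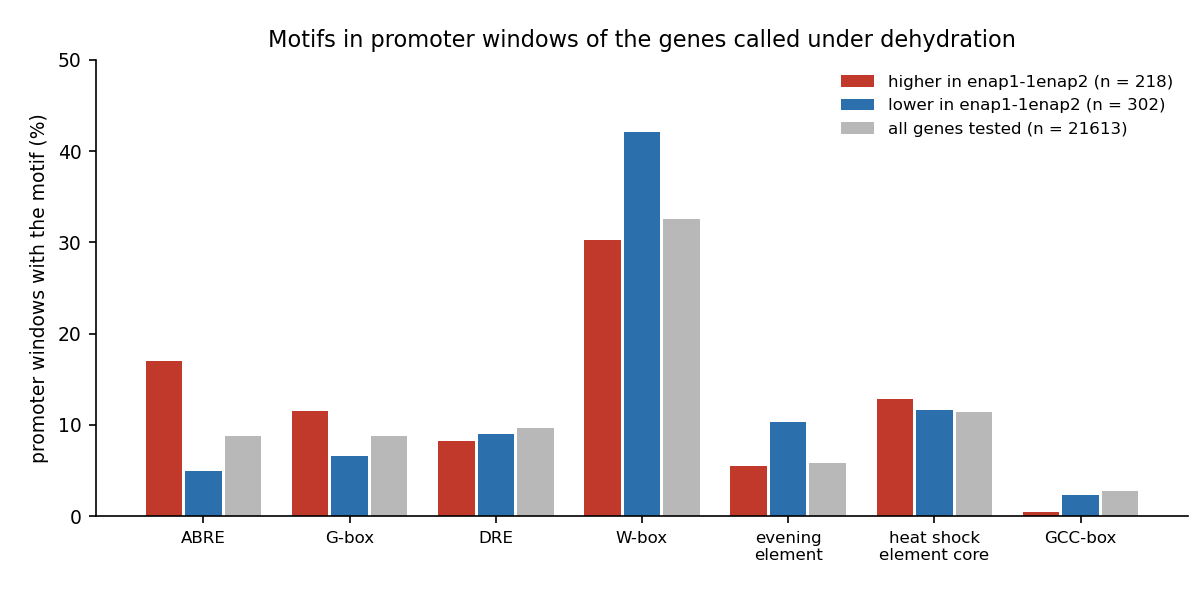
Share of promoter windows (percent, axis from 0) that hold each motif, for genes called higher in enap1-1enap2 Dehydration (218 windows), genes called lower (302) and all genes tested (21613). The ABRE bar is tallest for the genes called higher at 17.0%, and the W-box bar for the genes called lower at 42.1%.

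Some of the calls shared an annotated process or family. The terms given here were picked on these values out of 263 processes and 270 families with at least 10 tested genes, and stand beside 1.01% of all genes called higher and 1.4% called lower. Of 12 genes annotated to jasmonic acid biosynthesis 4 were called lower and none higher, and of 59 annotated to wounding 5 were lower and 1 higher. Response to salt stress had 10 lower and 2 higher of 228, and plant-type cell wall organization had 3 lower and none higher of 22. On the other side, metal ion transport had 6 higher and none lower of 59, and response to heat had 3 higher and none lower of 56. Among families, the AP2/ERF factors annotated as integrase-type proteins had 7 lower and none higher of 63. One of them, ERF53, which is known as a drought-induced factor, was at 15.3 and 18.1 CPM in enap1-1enap2 Dehydration, against 50.2 and 61.8 CPM in Col-0 Dehydration (−1.75). Another, RAP2.9, was at 4.55 and 2.81 CPM in enap1-1enap2 Dehydration, against 14.8 and 16 CPM in Col-0 Dehydration (−2.04). Heavy metal transport proteins had 4 higher and none lower of 36, and proline-rich extensin-like proteins had 3 lower and none higher of 13.

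In the list of 8 genes also measured by qPCR, RAB18 was called higher and PIP2;3 lower as described above, and by the adjusted p 1 was higher and 4 were lower. RD29A, a classical marker of dehydration, was at 5420 and 5504 CPM in enap1-1enap2 Dehydration, against 7171 and 7470 CPM in Col-0 Dehydration (−0.42 ± 0.15, adjusted p = 0.0783). It did not pass with all 8 libraries, but did when the 4 dehydration libraries were fitted alone (adjusted p = 0.000836). Its neighbour RD29B was at 1853 and 1969 CPM in enap1-1enap2 Dehydration, against 937 and 1049 CPM in Col-0 Dehydration (0.94 ± 0.49, adjusted p = 0.222), and had an adjusted p of 6.02e-06 in that smaller fit. Under Mock RD29B was at 1.93 and 2.29 CPM in enap1-1enap2 Mock, against 43.2 and 4.82 CPM in Col-0 Mock, and without Col-0 Mock replicate 1 the difference under dehydration had an adjusted p of 4.4e-08. The tandem genes RD29A and RD29B thus stood on opposite sides of 0. UGT74E2, a glycosyltransferase of the auxin indole-3-butyric acid, was at 221 and 201 CPM in enap1-1enap2 Dehydration, against 351 and 295 CPM in Col-0 Dehydration (−0.61 ± 0.09, adjusted p = 0.000353), and DREB2C, an AP2 factor of the heat and drought responses, was at 70.2 and 62.5 CPM in enap1-1enap2 Dehydration, against 110 and 97.5 CPM in Col-0 Dehydration (−0.65 ± 0.10, adjusted p = 0.000563). MYB44, a factor of the ABA response, was at 139 and 126 CPM in enap1-1enap2 Dehydration, against 182 and 191 CPM in Col-0 Dehydration (−0.49 ± 0.09, adjusted p = 0.00147), and overlaps other annotated genes. HDT4, a plant-specific histone deacetylase, was at 36.5 and 39.3 CPM in enap1-1enap2 Dehydration, against 46.5 and 40.8 CPM in Col-0 Dehydration and did not pass (−0.20 ± 0.10, adjusted p = 0.186). None of the other 9 histone deacetylase genes listed passed, with log2 fold changes between −0.20 and 0.25.

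The remaining lists gave no call. P5CS1, the enzyme of proline synthesis, was at 2198 and 2314 CPM in enap1-1enap2 Dehydration, against 1751 and 1882 CPM in Col-0 Dehydration (0.31 ± 0.10, adjusted p = 0.0467), but missed the threshold without any 1 of the 4 dehydration libraries or the 2 enap1-1enap2 Mock libraries (adjusted p between 0.0954 and 0.238), and 2 of 13 osmolyte genes were higher and 3 lower by the adjusted p. Of 15 wax and lipid transfer genes 4 were higher and 2 lower by the adjusted p, among them the lipid transfer protein LTP4, at 427 and 355 CPM in enap1-1enap2 Dehydration, against 217 and 208 CPM in Col-0 Dehydration (0.88), and the wax ester synthase WSD1 (0.72). Of 13 clock genes 1 was higher and 3 lower by the adjusted p, with PRR5 (−0.50), FKF1 (−0.49) and ELF4 (−0.39) lower and PRR7 (0.32) higher. Of 12 auxin genes 3 were higher and 4 lower, and of 9 suberin genes 2 were higher. No member of the 6 reference genes passed, with UBQ10 at 2866 and 2766 CPM in enap1-1enap2 Dehydration, against 3235 and 2988 CPM in Col-0 Dehydration (−0.14).

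The differences under dehydration were set beside those under Mock, which come from 4 other libraries in the same fit. Under Mock 290 genes (1.34%) were called, 84 higher (0.389%) and 206 lower (0.953%) in enap1-1enap2 Mock. Of the 218 genes called higher under dehydration, 11 were also called higher under Mock, which is 5.05% of the 218 and 13.1% of the 84, while 15 were called lower under Mock (6.88% of the 218 and 7.28% of the 206) and 192 were not called. Of the 302 genes called lower under dehydration, 10 were also called lower under Mock (3.31% of the 302 and 4.85% of the 206), 17 were called higher (5.63% of the 302 and 20.2% of the 84) and 275 were not called. More of the genes called under both treatments thus differed in direction than shared it. The interaction, which tests whether the genotype difference itself differed between the treatments, passed an adjusted p under 0.05 in 3639 genes (16.8%). That count was 1801 without enap1-1enap2 Mock replicate 1, 1910 without enap1-1enap2 Mock replicate 2, 2363 without Col-0 Dehydration replicate 1 and 2418 without enap1-1enap2 Dehydration replicate 2, and the 290 calls under Mock were 126 and 137 without enap1-1enap2 Mock replicate 1 and 2. It passed in the same direction in 153 of the genes called higher (70.2%) and in 208 of those called lower (68.9%), and since it uses the dehydration libraries, these shares rest in part on the same values that made the calls. The 2 sets of log2 fold changes correlated at −0.066 across all 21614 genes tested and at −0.211 across the 15013 genes of at least 5 CPM.

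**Figure D5:**
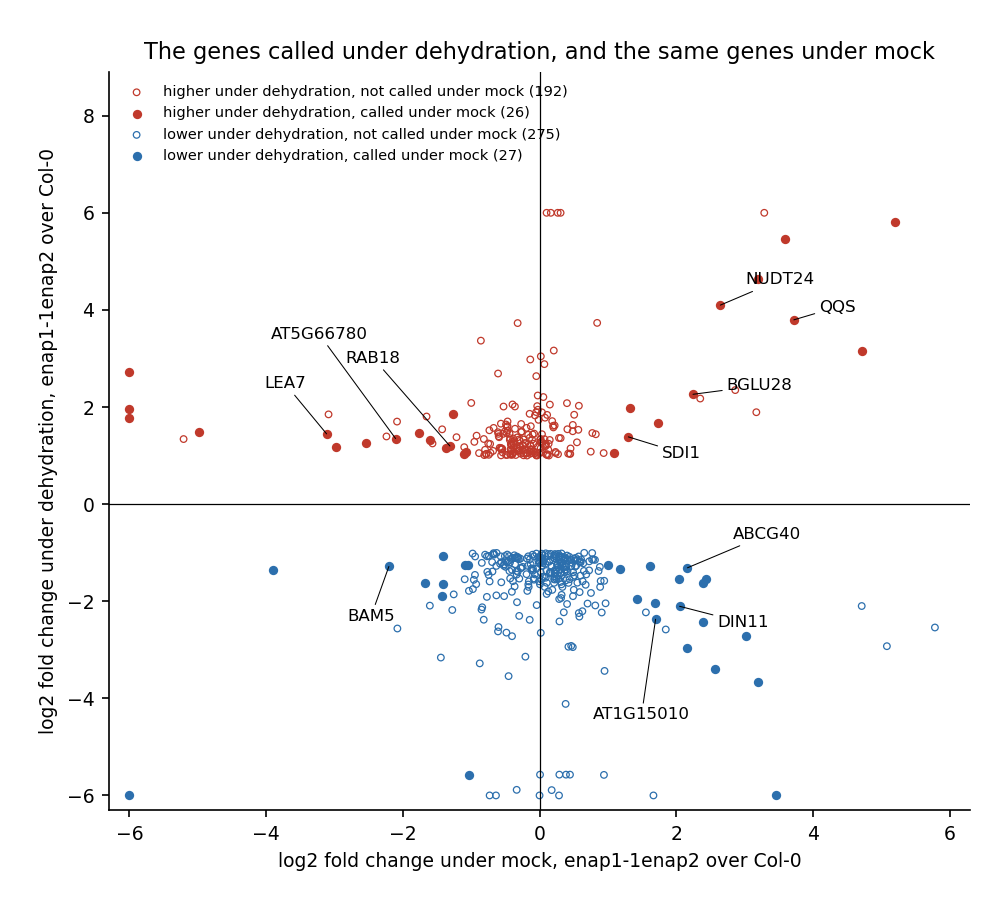
The 520 genes called under dehydration, with the log2 fold change of enap1-1enap2 Mock over Col-0 Mock across and that of enap1-1enap2 Dehydration over Col-0 Dehydration upward. Filled points were called under Mock as well, 26 of the genes higher and 27 of those lower under dehydration, and they lie on both sides of 0 across.

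Dehydrin and LEA genes were among those with opposite signs, higher under dehydration and lower under Mock. RAB18 was at 8.83 and 12.1 CPM in enap1-1enap2 Mock, against 24 and 27.3 CPM in Col-0 Mock (−1.31), and LEA7 was at 2.59 and 1.83 CPM in enap1-1enap2 Mock, against 30.5 and 9.28 CPM in Col-0 Mock (−3.12). AT5G66780 was at 0.508 and 0.534 CPM in enap1-1enap2 Mock, against 2.77 and 1.80 CPM in Col-0 Mock (−2.11). These 3 genes were thus lower in the mutant without stress and higher under dehydration. Of the 20 dehydrin and LEA genes, 17 were lower by the adjusted p in enap1-1enap2 Mock, with a median of −1.15, and 17 had an interaction on the higher side. Of the 9 PP2C phosphatases, 7 were lower by the adjusted p in enap1-1enap2 Mock and 8 had an interaction on the higher side. Over all 21614 genes tested, 799 were lower by the adjusted p in enap1-1enap2 Mock and 1745 (8.07%) had an interaction on the higher side. Col-0 Mock replicate 1 stood apart in some seed and LEA genes (43.2 against 4.82 CPM in the other Col-0 Mock library for RD29B). The Mock values of these genes were not fitted again without it, so its part in them was not tested.

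The reverse pattern, lower under dehydration and higher under Mock, was found in the 17 genes counted above, of which 4 are given here. WRKY40, a WRKY factor of the ABA and defence responses, was at 15.1 and 10.2 CPM in enap1-1enap2 Dehydration, against 30.5 and 30.7 CPM in Col-0 Dehydration, and at 8.43 and 6.64 CPM in enap1-1enap2 Mock, against 2.01 and 2.88 CPM in Col-0 Mock. ABCG40, a transporter that imports ABA into cells, was at 17.37 and 9.39 CPM in enap1-1enap2 Dehydration, against 29.2 and 37.9 CPM in Col-0 Dehydration, and at 25.4 and 26.6 CPM in enap1-1enap2 Mock, against 6.32 and 5.31 CPM in Col-0 Mock. UGT85A1, a glycosyltransferase active on cytokinins, was at 112 and 72.9 CPM in enap1-1enap2 Dehydration, against 231 and 239 CPM in Col-0 Dehydration, and at 85.2 and 84.5 CPM in enap1-1enap2 Mock, against 34.7 and 40.2 CPM in Col-0 Mock. DIN11 was at 29.4 and 27 CPM in enap1-1enap2 Mock, against 8.22 and 5.55 CPM in Col-0 Mock (2.05). In these 4 genes the order of the genotypes was opposite under Dehydration and Mock.

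A small number of genes differed the same way under both treatments. QQS was at 26 and 23.4 CPM in enap1-1enap2 Mock, against 1.88 and 1.86 CPM in Col-0 Mock (3.72), and its interaction was 0.08 ± 0.29 (adjusted p = 0.896). NUDT24 was at 1.37 and 1.83 CPM in enap1-1enap2 Mock, against 0.104 and 0.365 CPM in Col-0 Mock (2.65), with an interaction of 1.45 ± 0.61 (adjusted p = 0.121). SDI1 was at 15 and 16.3 CPM in enap1-1enap2 Mock, against 7.62 and 5.19 CPM in Col-0 Mock (1.3). On the lower side AT2G05660 had no counts in either enap1-1enap2 Dehydration library, against 10.8 and 7.13 CPM in Col-0 Dehydration, and was at least 97.8-fold lower with 3 counts per library as the floor. It was at 0.0508 and 0.0763 CPM in enap1-1enap2 Mock, against 11.5 and 13 CPM in Col-0 Mock. BAM5, a beta-amylase of the phloem, was at 38.6 and 32.4 CPM in enap1-1enap2 Dehydration, against 95.2 and 78.1 CPM in Col-0 Dehydration (−1.28), and at 3.02 and 3.13 CPM in enap1-1enap2 Mock, against 12.5 and 15.73 CPM in Col-0 Mock.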

How the data were processed

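RNA of whole seedlings was sequenced in 8 libraries, 2 in each of 4 groups assigned from the genotype and treatment labels. The authors trimmed reads with Trim Galore 0.6.7 and counted them on Araport11 exons (genome TAIR10) with featureCounts of Subread 2.0.1, without strand and with each mate counted, and deposited raw counts per gene. Reads on more than 1 gene were left out, so overlapping genes are uncertain, and mates are not independent molecules. The mapper was given differently in the methods and the file header and is not stated here.

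Counts were filtered with filterByExpr and scaled with TMM factors, and all 8 libraries were fitted, each group with its own mean, by the quasi-likelihood test of edgeR 4.0.16 (limma 3.58.1, R 4.3.3). The study's 3 thresholds were used: p under 0.01, Benjamini-Hochberg adjusted p under 0.05 and a log2 fold change over 1 in size. For the interaction the adjusted p alone was used. Standard errors were derived from the log2 fold change and its F statistic. On simulated counts of 21275 genes, 197 of 200 changed genes were recovered. Calls among the unchanged genes are not given here. Whether this recovery holds at the levels and fold changes of the real genes was not tested. Depth ran between 24007691 and 48279415 counts. Alternatives were other scalings, filters and thresholds, DESeq2 1.42.0, a replicate block, a fit on 4 libraries and leaving out each library.

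Gene lists, terms and the comparison itself were chosen with earlier results of these data known. Named genes are ENAP1 and ENAP2, the qPCR genes, the 10 smallest p in each direction and the 5 largest changes among called genes of at least 5 CPM, and up to 4 called members of each of 31 lists (or its most abundant member). All other named genes were chosen after their values were seen, and 1 gene that the rule names is not reported here. Names, processes and promoter windows (250 bases before to 50 after the start) came from RefSeq TAIR10.1, which held 36632 of the 36799 genes. The recurring share of an exon was taken over windows of 31 bases.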

Additional observations from a re-analysis of the deposited data

Results flagged for a closer look

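The genotype difference under dehydration differed from that under Mock, by the interaction test of edgeR and in the direction of the call, in 153 of the 218 genes called higher and in 208 of the 302 genes called lower. Of all 21614 genes tested, 3639 (16.8%) passed in either direction. The test uses the dehydration libraries, so the counts among called genes rest in part on the values that made the calls. Among the genes named for their p-value, size or list whose calls under the 2 treatments had opposite signs, the interaction (log2 fold change under dehydration minus that under Mock) was 2.51 ± 0.19 for RAB18 (adjusted p = 1.93e-06), 3.46 ± 0.26 for AT5G66780 (adjusted p = 1.93e-06) and 4.56 ± 0.51 for LEA7 (adjusted p = 4.96e-05). It was 2.15 ± 0.32 for the defence factor WRKY70 (adjusted p = 0.000355), which was at 8.43 and 6.19 CPM in enap1-1enap2 Dehydration, against 3.43 and 3.74 CPM in Col-0 Dehydration, and at 4.95 and 5.53 CPM in enap1-1enap2 Mock, against 13.6 and 9.02 CPM in Col-0 Mock. In the other direction it was −4.07 ± 0.39 for AT1G15010 (adjusted p = 1.45e-05), which was at 2.99 and 2.9 CPM in enap1-1enap2 Mock, against 1.2 and 0.649 CPM in Col-0 Mock, and −4.15 ± 0.56 for DIN11 (adjusted p = 0.000187). Each of these 6 genes lay on one side in both mutant libraries under dehydration and on the other side in both under Mock.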

How the results depend on the processing

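The 520 calls under dehydration were 521 with RLE factors, 519 with upper quartile factors, 496 with library size alone, 670 without a filter, 524 with a minimum of 1 CPM, 502 in the fit on 4 libraries and 486 with DESeq2. Leaving out 1 library gave 366 to 574 calls for dehydration, the lowest without enap1-1enap2 Dehydration replicate 2 (155 higher and 211 lower, 294 of them shared with the 520), 126 to 421 for Mock and 1801 to 4282 for the interaction, and log2 fold changes of −1.03 to −0.92 for ENAP1 and −0.97 to −0.69 for ENAP2. The size threshold mattered most among the settings tried: the adjusted p alone gave 3176 calls for dehydration and 1550 for Mock, a threshold of 1.5 gave 197 and 168, and a test against a log2 fold change of 1 (glmTreat) gave 32 and 29. A replicate block gave 486 calls for dehydration, 478 of them shared with the 520. Deviations of libraries with the same number correlated at most at 0.031, so that they share only a number. Signs turned when 1 library was left out for PER1 (−6.85 to 6.32, and 0.22 without enap1-1enap2 Dehydration replicate 2), BG1 (−0.0601 without Col-0 Dehydration replicate 2 to 0.59) and BHLH100 (−0.82 without enap1-1enap2 Dehydration replicate 2 to 3.28), and the cause was not tested. Of 59 named genes past the thresholds, 46 stayed past the adjusted p in every setting. The interaction was not fitted on 4 libraries, which hold 1 treatment. With 2 libraries a group, differences under the fold threshold and genes near the floor were measured with little precision.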

Other observations

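Some calls concerned sequences whose counts moved with 1 library or lie beside repeats. AT1G07017 was at 364 and 12.9 CPM in enap1-1enap2 Dehydration, against 35.4 and 10.8 CPM in Col-0 Dehydration, and AT2G07706 was at 346 and 19.6 CPM in enap1-1enap2 Dehydration, against 31.4 and 15.4 CPM in Col-0 Dehydration, so that both were called higher through enap1-1enap2 Dehydration replicate 1. AT2G01020, annotated as a 5.8S ribosomal RNA gene, was at 13.4 and 9.50 CPM in enap1-1enap2 Dehydration, against 33.8 and 38.9 CPM in Col-0 Dehydration (−1.66). Among members at the floor, the AP2/ERF gene TDR1 had no counts in enap1-1enap2 Dehydration, against 1.71 and 1.19 CPM in Col-0 Dehydration, and was at least 15.9-fold lower with 3 counts per library as the floor. Abundant genes outside the lists were also called lower. GRP3S, a glycine-rich protein, was at 715 and 815 CPM in enap1-1enap2 Dehydration, against 1957 and 2012 CPM in Col-0 Dehydration (−1.38), and CP29, a chloroplast RNA-binding protein, was at 339 and 360 CPM in enap1-1enap2 Dehydration, against 851 and 828 CPM in Col-0 Dehydration (−1.26). AT3G02480, annotated as a LEA protein, was at 2299 and 2521 CPM in enap1-1enap2 Dehydration, against 989 and 1035 CPM in Col-0 Dehydration (1.25, adjusted p = 0.026).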
